A study of Drosophila melanogaster with 9 samples.

Results

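Wing discs of male Drosophila melanogaster larvae without a hairpin transgene, cut to leave the wing pouch and hinge, were described from the 3 OreR libraries of the series, out of 9 libraries in all, and every one of the 15682 genes in the deposited table was counted. Males of the wild-type strain OreR had been crossed to virgin females of genotype w1118, Bx-GAL4; UAS-dicer2. The larvae therefore carried the Bx-GAL4 driver (also called MS1096) and a transgene for Dicer-2, but no RNA hairpin, and they are not an unmanipulated wild type. Each genotype was represented by 30 discs from male larvae of instar 3, kept at 25 °C and taken at the wandering stage, with the notum cut off and RNA extracted in triplicate. Nothing states that the 3 OreR libraries came from separate crosses or dissections, so the spread between them may be technical. Values are RPKM, in which reads are divided by the length of the gene and by the depth of the library, and errors are the SD of 3 libraries.

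The wing disc is an epithelial sac that is set aside in the embryo and grows through larval life, and the adult wing blade, hinge and dorsal thorax form from it. The blade comes from its central region, the pouch, which is divided into compartments by selector genes and patterned by Hedgehog, Decapentaplegic (Dpp) and Wingless signals from the compartment borders. The hinge rings the pouch, and the notum, which gives the thorax, lies beyond the hinge.

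The recovered depths were 25435056, 27333740 and 34333231 reads in replicates 1, 2 and 3. Across 7290 genes, which are not independent replicates, Pearson correlations of log2(RPKM + 1) were 0.994 to 0.995 between libraries. The deposited RPKM divided reads by a length close to the whole span of a gene, introns included. A gene with long introns therefore had a low RPKM for its reads. A second scale is given beside it where it matters: TPM, the recovered reads per exon length, scaled to the same total in every library. The TPM value assumes that every read of a gene fell in its exons.

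Of the 15682 genes, 7290 (46.5%) had at least 1 RPKM in every library and are called detected below. A further 4189 genes (26.7%) were listed at 0 in all 3 libraries, and 4203 lay between. The detected genes had a median of 16.0 RPKM, with the 10th percentile at 3.05 and the 90th at 70.9 RPKM. Means of at least 100 RPKM were reached by 497 genes and means of at least 1000 RPKM by 89. Among protein-coding genes 50.1% of 13298 were detected, against 12.4% of 796 noncoding RNA genes.

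**Figure D1:**
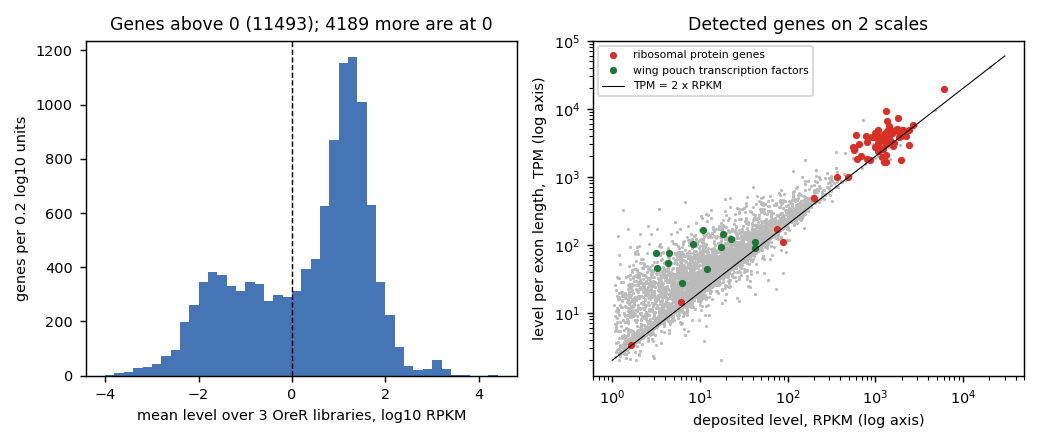
Left, number of genes by mean level over the 3 OreR libraries (log10 RPKM), with 1 RPKM dashed. The 11493 genes above 0 form a broad low group and a peak near the detected median of 16.0 RPKM, and 4189 genes at 0 are not drawn. Right, level per exon length (TPM) against deposited level (RPKM) for detected genes, both axes logarithmic. Wing pouch transcription factor genes (green) lie above the line of TPM at 2 times RPKM, while ribosomal protein genes (red) form the group at the upper right.

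The most abundant RNAs came from the mitochondrial genome and from ribosomal protein genes. The large mitochondrial ribosomal RNA mt:lrRNA stood at 22855, 20778 and 18131 RPKM in replicates 1, 2 and 3, the 1 gene above 10000 RPKM. It took 3.03, 2.75 and 2.40% of the recovered depth of those libraries, which is close to the sum of reads over genes. RpL41, which encodes a very small protein of the large ribosomal subunit, followed with 6674, 5930 and 5794 RPKM. Replicate 1 was highest and replicate 3 lowest for both genes.

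Of the 20 highest genes, 11 encoded ribosomal proteins and 4 were mitochondrial. Of the 100 highest, at least 64 encoded ribosomal proteins and 6 were mitochondrial, while 11 had no symbol and could not be classed. These 100 genes held 43.9% of the summed RPKM. Of 88 genes with cytoplasmic ribosomal protein symbols 82 were detected, with a median over the 88 of 1202 RPKM. Paralogue copies filled the low end: RpL10Aa, RpL37-2 and RpS28a were listed at 0, RpS10a averaged 0.0886 RPKM and RpS5b 0.745. All 71 mitochondrial ribosomal protein genes were detected at a median of 27.6 RPKM. Among the genes with a TPM value, ribosomal protein genes made up 68 of the highest 100 by RPKM and 69 by TPM, and 88 genes belonged to both sets.

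ImpE2, an ecdysone-inducible gene of imaginal discs, had 3182, 2651 and 2818 RPKM and ranked 4th. The small heat shock protein genes Hsp23 and Hsp27 averaged 2269 ± 218 and 1935 ± 59.1 RPKM, ranks 10 and 20. The tubulin gene alphaTub84B averaged 1849 ± 47.9 RPKM at rank 23. The translation elongation factor gene eEF2 and the cytoplasmic actin gene Act5C averaged 1248 ± 18.2 and 1243 ± 15.1 RPKM, ranks 62 and 63.

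RNAs that the cross itself can add were also abundant. Dcr-2, the nuclease of the RNA interference pathway, had 919, 902 and 756 RPKM and ranked 102nd. RNA of the endogenous gene and of UAS-dicer2 cannot be told apart in this value. The transporter gene w, which colours the eye and marks many transgenes, had 426, 456 and 454 RPKM. Neither value can be read as the level in a disc without the driver and UAS-dicer2.

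The pouch identity genes were all present, at moderate levels. All 13 wing pouch transcription factor genes with a row were detected, with a median of 10.8 RPKM and 91.0 TPM. The median over detected genes was 16.0 RPKM and 44.2 TPM, so the list lay below it by RPKM and above it by TPM. Over all genes, silent ones included, the median was 0.537 RPKM and 1.57 TPM. The wing selector vestigial (vg, FBgn0003975; 2R, 12884201 to 12899385) had 17.8, 18.7 and 18.9 RPKM. Its DNA-binding partner scalloped (sd, FBgn0003345; X, 15804370 to 15827682) had 21.6, 22.2 and 24.6 RPKM. The POU-domain gene nubbin (nub, FBgn0085424; 2L, 12587625 to 12628135) had 11.3, 10.5 and 10.5 RPKM. All positions are BDGP6 gene extents, which was not the authors' build.

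The order of these genes depended on the scale. By RPKM the cofactor genes Chi and Ssdp led with 42.4 each, then sd with 22.8, vg with 18.5 and the Dpp target salr with 17.4. Per exon length nub led with 165 TPM, followed by vg with 144, sd with 122, Ssdp with 109 and the distal limb gene Dll with 103 TPM. The span of nub is 40511 bases and its exons cover 5278. The Dpp targets salm and bi averaged 11.9 ± 1.72 and 3.19 ± 0.292 RPKM, and the nub paralogue pdm2 averaged 4.32 ± 0.466. The selectors ap and rn and the driver locus Bx were not analysed here.

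**Figure D2:**
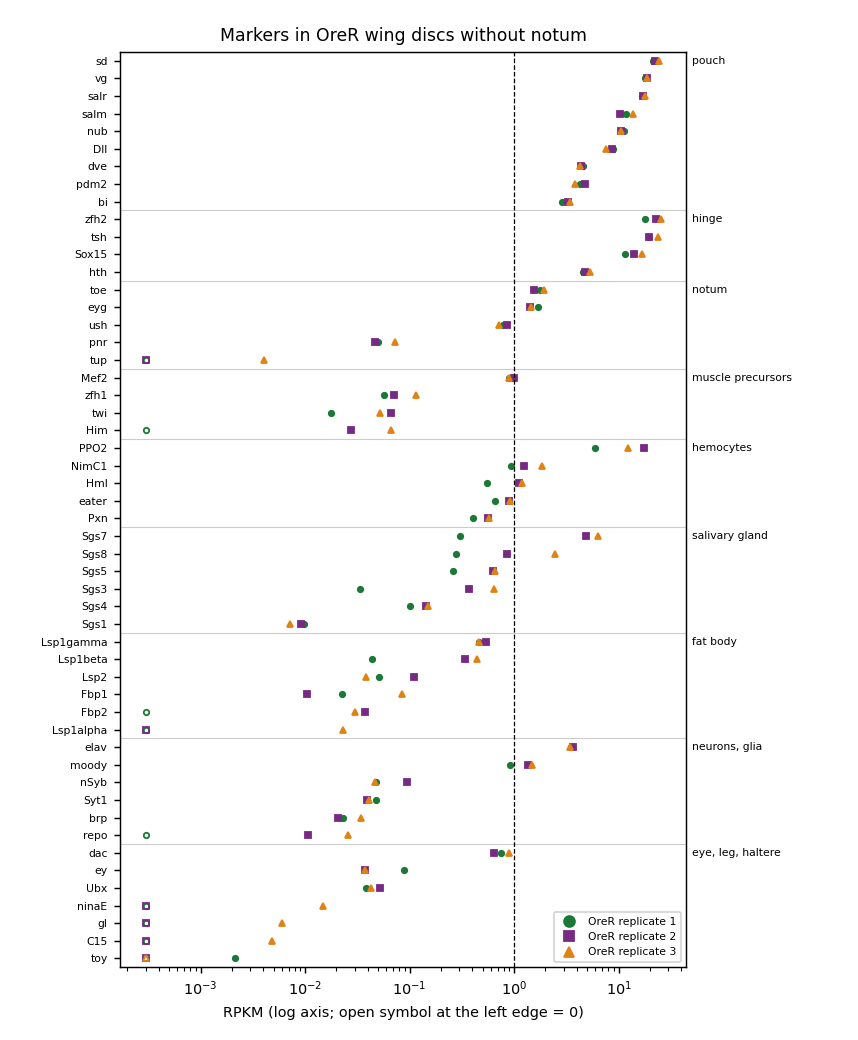
RPKM of marker genes in each of the 3 OreR libraries (log axis; green circles, purple squares and orange triangles are replicates 1, 2 and 3; dashed line at 1 RPKM; open symbols at the left edge are values of 0). Pouch and hinge genes lie between about 3 and 26 RPKM with the 3 libraries close together. Most hemocyte and salivary gland genes lie lower, while PPO2 and, in replicates 2 and 3, Sgs7 lie within that range. Genes of these 2 tissues spread over the libraries.

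Hinge genes were as clear as pouch genes. The hinge markers zfh2, tsh, Sox15 and hth, all transcription factor genes, were detected at 22.1 ± 3.71, 21.0 ± 2.35, 14.2 ± 2.57 and 4.89 ± 0.408 RPKM. The discs without notum thus held RNA of hinge as well as pouch markers. Sox15 had 11.6, 14.1 and 16.7 RPKM in replicates 1, 2 and 3, and zfh2 was likewise lowest in replicate 1 and highest in replicate 3, at 25.3. Of 11 hinge genes with at least 20 reads, 10 were highest in replicate 3 and 7 lowest in replicate 1, while the 13 pouch genes were highest in replicates 1, 2 and 3 for 4, 2 and 7 of them. Among all 8853 genes with at least 20 reads, 3138 were highest in replicate 3 and 3319 lowest in replicate 1. The share of hinge tissue in each library was not measured. Of 7 genes listed for the peripodial cells, the flat layer that covers the disc, 6 were detected at a list median of 13.2 RPKM, 3 of them Doc genes that are also on the hinge list.

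The notum list was mixed, with 6 of 10 genes detected at a list median of 1.64 RPKM. The notum selector pnr, a GATA factor gene, had 0.0504, 0.0469 and 0.0727 RPKM from 75 reads over the 3 libraries, and the LIM-homeodomain gene tup had 3 reads. The Pax genes toe and eyg averaged 1.77 ± 0.190 and 1.52 ± 0.141 RPKM, and ush, the partner of pnr, 0.784 ± 0.0649. Per exon length toe and ush were close, ush at 15.1 TPM, and eyg stood at 4.81 TPM, against 0.387 TPM for pnr. The Iroquois genes caup, ara and mirr, which act in the notum and also in the blade and hinge, were detected at 8.93, 7.20 and 5.85 RPKM. In bulk tissue a low level in many cells and a high level in few cells cannot be told apart.

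The position genes of the body axis were nearly silent except one. Antennapedia (Antp, FBgn0260642; 3R, 6896253 to 6999228), the Hox gene of the second thoracic segment, had 0.657, 0.687 and 0.757 RPKM. Those values rest on 6329 reads, and per exon length Antp stood at 18.2 TPM: its span is 102976 bases and its exons cover 7945. Ultrabithorax (Ubx), which makes the haltere differ from the wing, had 0.0383, 0.0525 and 0.0426 RPKM, the product of at least 151 reads. Scr averaged 0.0219 RPKM, pb 0.0275 and lab 0.0108. Abd-B and abd-A had 16 and 1 reads, and Dfd had none, which at 3 reads over the 3 libraries allows up to 0.00325 RPKM.

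Apart from the tracheal list and the notum and peripodial lists given above, lists for other tissues had a smaller share of detected genes than the 46.5% of all genes. Of 12 hemocyte genes with a row 5 were detected, of 8 leg genes 3 and of 6 germline genes 2. None of 10 salivary gland or 9 testis genes was detected. Of 8 adult muscle precursor genes 1 was detected, the RNA-binding protein gene how at 5.26 ± 0.0281 RPKM. In that list twi, Him and zfh1 averaged 0.0454, 0.0314 and 0.0813 RPKM, and Mef2 averaged 0.929. Of 11 fat body genes 1 was detected, regucalcin at 14.5 ± 1.05 RPKM, while the 6 serum and fat body protein markers summed to 0.578, 1.04 and 1.09. Of 8 eye genes 1 was detected, eya at 1.12 ± 0.120 RPKM, while ey, toy, gl and ninaE summed to 0.0909, 0.0374 and 0.0581. Of 7 neuronal genes 2 were detected, the membrane fusion gene Syx1A at 17.0 ± 1.88 RPKM and the RNA-binding protein gene elav at 3.54 ± 0.151, whereas the synaptic genes nSyb, Syt1 and brp were all under 0.1 RPKM. Of 5 glial genes the sodium pump gene nrv2 was detected at 26.5 ± 1.16 RPKM.

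Most of the tracheal list and part of the muscle list were detected. Of 8 tracheal genes 6 were detected, with a list median of 16.8 RPKM. The POU-domain gene vvl, which also acts in wing veins, was highest at 126 ± 12.8 RPKM, and the tracheal factor gene trh averaged 4.87 ± 0.342. Of 11 muscle structural genes 4 were detected, led by the actin genes Act87E at 22.6 ± 1.42 and Act57B at 6.39 ± 0.271 RPKM, while the muscle myosin gene Mhc averaged 0.00856. How much of these values came from tracheal or muscle cells was not tested.

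Hemocyte and salivary gland markers differed between libraries by more than most genes. The 5 hemocyte markers with a row summed to 8.45, 21.5 and 17.0 RPKM in replicates 1, 2 and 3. Most of this was PPO2, a crystal cell enzyme gene, with 5.89, 17.7 and 12.4 RPKM. The phagocyte genes Hml (0.550, 1.13 and 1.20), NimC1 (0.940, 1.24 and 1.87) and eater (0.660, 0.902 and 0.924) were lowest in replicate 1 as well. The 6 salivary glue protein markers summed to 0.987, 6.93 and 10.2 RPKM, led by Sgs7 with 0.305, 4.92 and 6.32. Over the 3 libraries Sgs8, Sgs3, Sgs5, Sgs4 and Sgs1 had only 49, 39, 35, 18 and 3 reads, so their values carry a large counting error. Replicate 1 was the lowest for both tissues.

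All 7 compartment genes and 10 of 11 dorsal-ventral border genes with a row were detected. The posterior selector engrailed (en) had 24.2, 25.3 and 27.7 RPKM and its paralogue inv averaged 3.68 ± 0.188. The anterior gene ci, the transcription factor of the Hedgehog pathway, had 48.0, 47.5 and 55.2 RPKM. At the dorsal-ventral border the glycosyltransferase gene fng averaged 13.3 ± 0.477 RPKM and 321 TPM. The Notch ligand gene Ser averaged 19.6 ± 0.504 RPKM and Notch (N) 21.4 ± 0.546. The margin gene cut (ct) averaged 0.206 ± 0.0107 RPKM from 1248 reads, or 2.31 TPM, and the proneural genes ac and sc averaged 15.8 ± 0.980 and 16.5 ± 1.11 RPKM.

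Most genes of the patterning pathways were detected, while several ligand genes were low. All 14 Hedgehog and all 15 Hippo pathway genes with a row were detected, as were 23 of 24 Dpp, 22 of 23 Wnt, 22 of 24 Notch and 18 of 21 EGF receptor pathway genes. This compares with 46.5% of all genes. None of the 5 genes of fibroblast growth factor signalling with a row was detected, neither the ligand genes ths, bnl and pyr nor the receptor gene htl at 0.0308 RPKM and its adaptor gene stumps at 0.0177. The genes wg and Dl, ligand genes of the Wnt and Notch pathways, and the fibroblast growth factor receptor gene btl were not analysed here.

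In the Hedgehog pathway the ligand gene hh had 5.98, 5.65 and 6.61 RPKM. The coreceptor gene ihog averaged 113 ± 2.36 RPKM, the transducer smo 34.5 ± 1.19, the coreceptor boi 10.9 ± 0.453 and the receptor ptc 9.17 ± 1.31. On the exon scale hh stood at 70.7 TPM, close to smo at 79.0 and above ptc at 51.9, so that a low rank of the ligand held for RPKM alone.

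In the Dpp pathway the ligand gene dpp had 2.54, 2.79 and 2.87 RPKM, and the second ligand gene gbb had 134, 132 and 128. The difference held per exon length, at 33.1 TPM for dpp and 260 TPM for gbb. The type I receptor genes tkv and sax averaged 10.4 ± 0.867 and 26.6 ± 0.487 RPKM, and the type II receptor gene put averaged 27.6 ± 1.02. Per exon length tkv was highest of these at 247 TPM. The repressor gene brk averaged 25.8 ± 2.23 RPKM and the inhibitory Smad gene Dad 10.9 ± 0.627. The embryonic ligand gene scw was listed at 0, which allows up to 0.0217 RPKM.

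Of the Wnt ligand genes with a row, Wnt5 and Wnt2 averaged 33.5 ± 0.641 and 11.2 ± 1.26 RPKM. Wnt6 and Wnt4 averaged 2.21 ± 0.114 and 1.69 ± 0.0172, and Wnt10 averaged 0.0542. Per exon length Wnt2 was above Wnt5, at 90.4 and 64.5 TPM, and Wnt6 and Wnt4 stood at 27.5 and 21.8. The Wnt secretion gene wls averaged 62.4 RPKM and the transducer arm 119 ± 4.45. The receptor genes changed order with the scale too. By RPKM fz4 came first with 19.8, then fz2 with 7.35, fz3 with 4.51 and fz with 1.89. Per exon length fz2 led with 187 TPM, then fz with 93.9, fz4 with 40.6 and fz3 with 32.3 TPM. The fz gene spans 94297 bases and its exons cover 3817.

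Notch target genes of the E(spl) complex, which encode mostly transcriptional repressors, covered a wide range. E(spl)mbeta-HLH had 79.8, 113 and 102 RPKM, lowest in replicate 1, and E(spl)m5-HLH averaged 0.600 ± 0.109. In the EGF receptor pathway the ligand genes spi, Krn and vn averaged 27.8 ± 1.21, 6.71 ± 0.296 and 2.52 ± 0.123 RPKM. The ovarian ligand gene grk averaged 0.0884, and Egfr itself 12.5 ± 0.199.

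The JAK-STAT and tumour necrosis factor pathways had detected receptors and little ligand RNA. In JAK-STAT signalling the receptor gene dome averaged 26.2 ± 1.39 RPKM, the kinase gene hop 15.4 ± 0.461 and Stat92E 12.4 ± 0.482. Of its ligand genes upd1 averaged 1.30 ± 0.138, upd3 0.106 and upd2 0.0758 RPKM from 18 reads. In tumour necrosis factor signalling the receptor gene grnd averaged 56.3 ± 1.20 RPKM and the receptor gene wgn 5.48 ± 0.0598, while the ligand gene egr averaged 0.342 ± 0.0534. On the exon scale egr stood at 1.85 TPM and grnd at 140. Of the insulin-like peptide genes Ilp1, Ilp3, Ilp4, Ilp5 and Ilp7 were listed at 0, and Ilp8 had 8 reads.

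**Figure D3:**
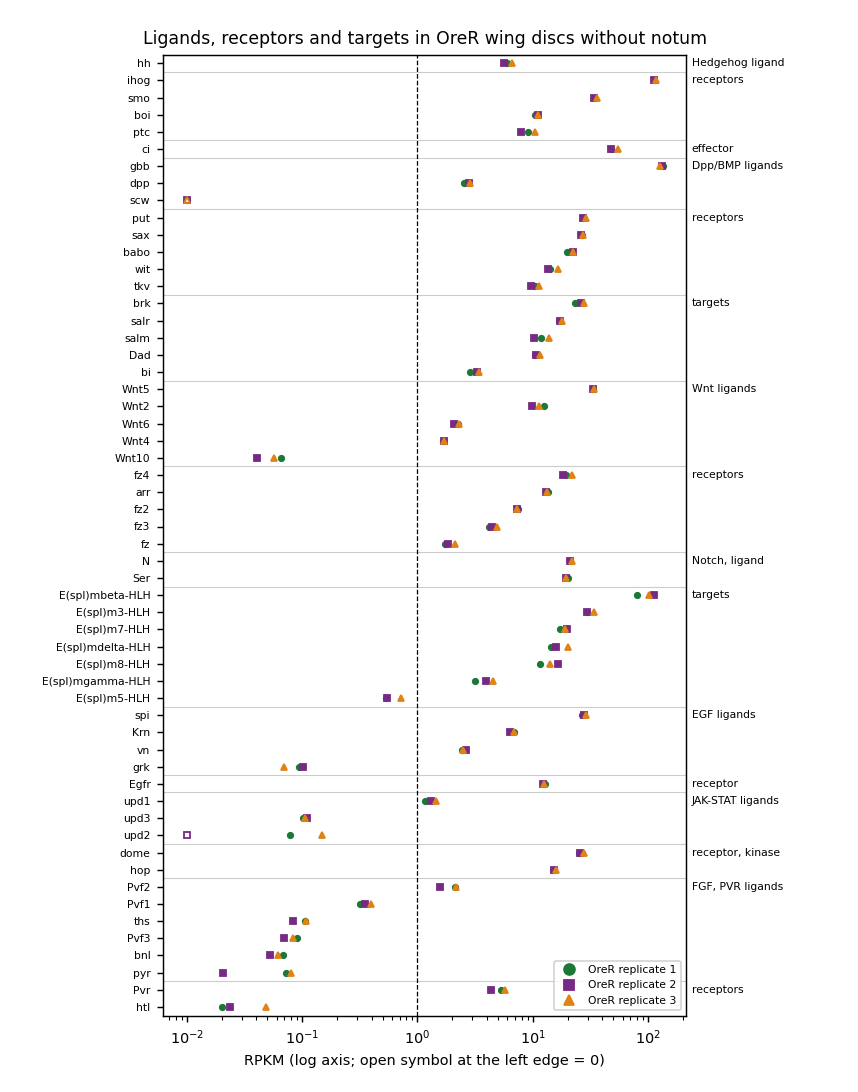
RPKM of ligand, receptor and target genes in each of the 3 OreR libraries (log axis; green circles, purple squares and orange triangles are replicates 1, 2 and 3; dashed line at 1 RPKM; open symbols at the left edge are values of 0). Receptor genes such as ihog, dome and put lie to the right of 1 RPKM, as do ligand genes such as gbb, Wnt5, spi and hh. The ligand genes upd2, upd3, bnl and grk and the receptor gene htl lie to its left.

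The 15 Hippo pathway genes, which restrain growth or act downstream of that restraint, ranged from 1.30 RPKM for app to 89.0 RPKM for fj, with a median of 24.5. Their median CV, the SD over the mean, was 3.80%. The coactivator gene yki had 38.6, 38.1 and 39.1 RPKM, the kinase gene hpo averaged 33.9 ± 0.616 and the atypical cadherin gene ft averaged 29.4 ± 0.261. The second kinase gene wts averaged 6.34 ± 0.167 RPKM. The apoptosis inhibitor gene Diap1, a target of the pathway, averaged 38.2 ± 1.45 RPKM, or 308 TPM.

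Dosage compensation, which raises transcription of the single male X chromosome, is carried out by a protein and RNA complex, and its 9 genes with a row were all detected. The noncoding RNA roX1 had 309, 331 and 321 RPKM and roX2 42.7, 39.1 and 40.2. The male-specific subunit gene msl-2 had 28.2, 28.1 and 27.1 RPKM. The median of 1187 detected X-linked genes was 14.9 ± 0.171 RPKM, against 16.2 ± 0.178 for 5734 detected autosomal genes. The ratio per library was 0.921 ± 0.0138, and the 3 libraries lay on the same side of 1. When every gene above 0 was counted the ratio of medians was 1.15, so its direction depended on which genes were taken. On the X 51.5% of 2304 genes were detected, against 41.2 to 47.8% on the 4 large autosome arms.

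Chromosome 4, a small and largely heterochromatic autosome, held 91 genes, of which 58 (63.7%) were detected and 3 were listed at 0. Their median was 29.4 RPKM and 125 TPM, against 40.1 TPM for detected X-linked genes and 44.1 to 45.2 TPM on the large autosome arms. Its pattern genes included ci and zfh2. Of 41 genes on the Y chromosome 5 were detected, at a median of 1.91 RPKM. On the list of named Y-linked genes, none of 6 with a row was detected, and the highest averaged 0.00982 RPKM.

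Sensory receptor, digestive enzyme and reproductive gene families were largely listed at 0, against 26.7% of all genes. Of 60 odorant receptor genes 45 were listed at 0 and 2 were detected, and the odorant coreceptor gene Orco had no read, which allows up to 0.00659 RPKM. Of 58 gustatory receptor genes 41 were at 0 and 1 was detected. Among 63 ionotropic receptor genes 38 were at 0 and 4 detected. The highest were Or43b at 5.87 ± 0.232, Ir40a at 3.59 ± 0.138 and Gr61a at 1.85 RPKM, the last with a CV of 52.8%. All 11 trypsin genes and 37 of 45 accessory gland protein genes were listed at 0.

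Cuticle and enzyme families were mixed. Of 70 CPR cuticle protein genes 28 were at 0 and 11 were detected, with Cpr49Ac at 74.8, 71.6 and 71.0 RPKM the highest. Of 26 Tweedle cuticle genes 1 was detected, TwdlE at 5.16 ± 1.05. Among 85 cytochrome P450 genes 12 were detected, led by Cyp310a1 with 23.4, 45.3 and 33.3 RPKM. Glutathione transferase genes stood apart from these, with 21 of 35 detected and GstD1 at 655, 621 and 588 RPKM. None of 13 antimicrobial peptide genes was detected.

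**Figure D4:**
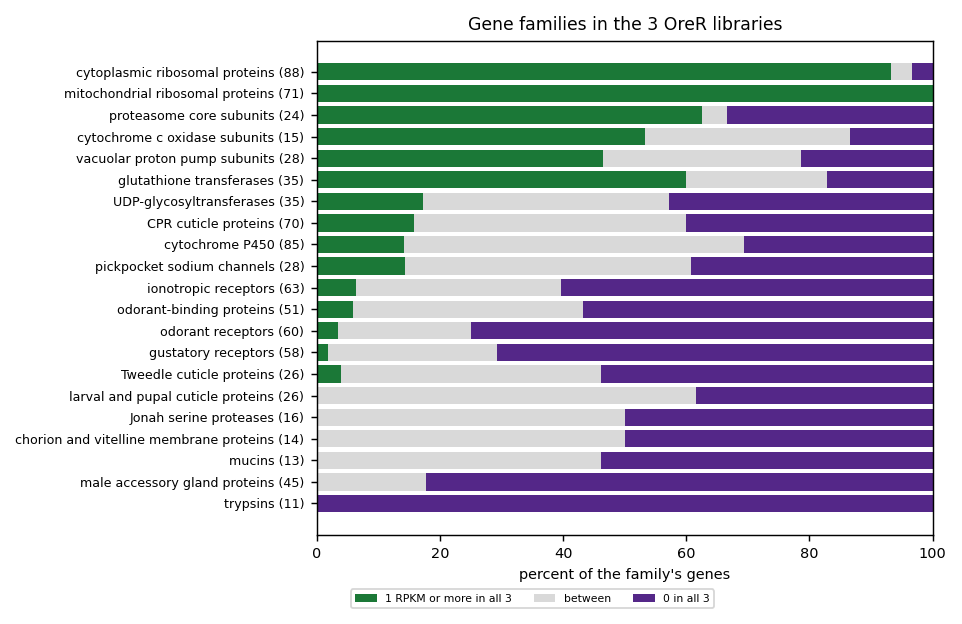
Percent of each gene family at 1 RPKM or more in all 3 OreR libraries (green), between (grey) and at 0 in all 3 (purple), with the number of genes in brackets. All 71 mitochondrial ribosomal protein genes are green and all 11 trypsin genes are purple.

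Gene families of complexes that every cell needs also had paralogue copies at 0. Of 24 genes with proteasome core symbols 15 were detected, from 121 to 218 RPKM. Among them were all of Prosalpha1 to Prosalpha7 and Prosbeta1 to Prosbeta7. The remaining detected gene was a copy with R in its symbol, Prosalpha1R at 124 ± 9.15 RPKM, beside Prosalpha1 at 121 ± 10.6. The 8 listed at 0 were copies with T or R added to the symbol, such as Prosalpha3T and Prosbeta5R1, and Prosbeta2R2 averaged 0.0567. Of 28 vacuolar proton pump genes 13 (46.4%) were detected and 6 (21.4%) were at 0, close to the 46.5% and 26.7% of all genes. Reads of close paralogues may have been shared or dropped in counting, so low copies are uncertain.

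Several classes at 0 cannot be read as absent. The libraries were made from poly(A) RNA, and reads of repeated copies may have been shared or dropped in counting. Of 111 replication-dependent histone gene copies 93 were listed at 0 and none was detected. The messages of such copies normally end in a stem-loop and not in a poly(A) tail. Of 5 histone variant genes outside the repeat cluster 4 were high, His4r at 1062 ± 43.3, His3.3B at 365 ± 9.85, His2Av at 315 and His3.3A at 165 RPKM. The other, BigH1, had 1 read over the 3 libraries. Of 292 transfer RNA genes 279 were at 0. Over the 4043 genes at 0 with a BDGP6 span, which was taken as the length, 3 reads over the 3 libraries allowed up to a median of 0.0371 RPKM, counting error only, and in none did that limit reach 1 RPKM.

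Among noncoding RNA genes CR40469 was highest at 1720, 1643 and 1484 RPKM. CR42491 averaged 937, the small RNA sncRNA:838 484, CR42862 445 and roX1 320 RPKM. The snoRNA host gene Uhg7 averaged 210 ± 5.69. CR32027, the RNA that the series' hairpins target, averaged 2.74 ± 0.495 RPKM and ranked 6666th.

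The 3 libraries agreed closely for most genes. The median coefficient of variation (CV) of a detected gene was 5.56%, against 2.57% from counting error alone. It was under 10% for 81.6% of detected genes, over 25% for 220 and over 50% for 43. The median CV was 9.19% for genes of 1 to 5 RPKM, 4.77% for 20 to 100 RPKM and 5.84% for 1000 RPKM and above. Of the 12 least variable genes of at least 5 RPKM, the proteasome gene Prosbeta7 averaged 153 ± 0.323 RPKM and the mitochondrial protease gene Spg7 had 10.1 RPKM in each library. A CV below the counting error comes from 3 values only and is given as a description.

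Heat shock genes spread widely. Their 22 detected members had a median CV of 26.9%. Hsp67Bc had 2.19, 3.22 and 23.7 RPKM, Hsp22 2.98, 13.7 and 28.1, and Hsp68 10.2, 30.9 and 21.3. Hsp26 had 436, 738 and 934 RPKM from 60658 reads, a CV of 35.7%. Of 22 members with at least 20 reads 15 were lowest in replicate 1, against 3319 of all 8853 such genes. The abundant members Hsp23 and Hsp27 were highest in replicate 1 instead, and the chaperone gene Hsp83 averaged 973 ± 90.2 with replicate 2 lowest. Hsp22 and CG4456, which had 2882 and 2883 reads, share reads, and the near-identical Hsp70 copies may do so. Neither set can be taken as separate observations.

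**Figure D5:**
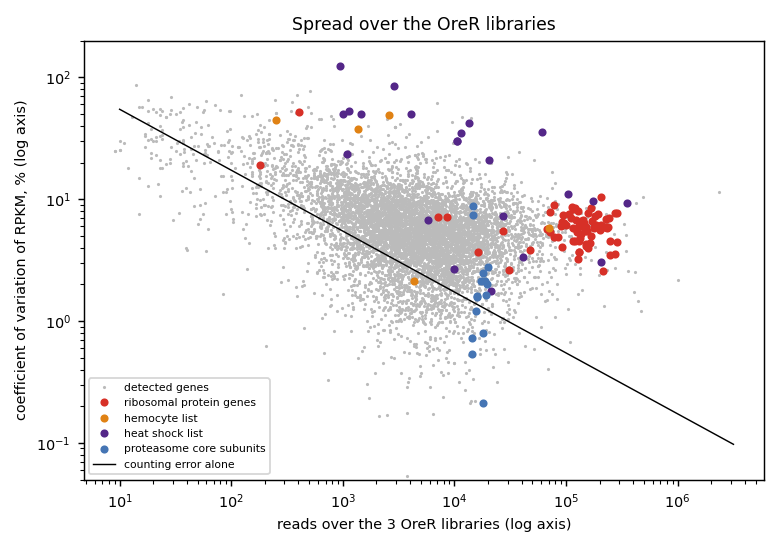
Coefficient of variation of RPKM over the 3 OreR libraries against the number of reads, for detected genes (both axes logarithmic; the line is counting error alone). Heat shock genes (purple) reach 125%, proteasome core genes (blue) lie at or under 8.79%, and ribosomal protein genes (red) lie above the counting line at the right.

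Other gene groups also moved together between libraries. Of 83 ribosomal protein genes with at least 20 reads, 65 were highest in replicate 1 and 74 lowest in replicate 3. All 7 growth and nucleolar genes and 12 of 16 cell cycle genes were highest in replicate 2. Of 15 junction and polarity genes 14 were highest in replicate 3. Among all 8853 genes with at least 20 reads the highest value fell in replicates 1, 2 and 3 for 2832, 2883 and 3138, and the lowest for 3319, 2583 and 2951. The 14 ecdysone-response genes had no common order, with the lowest value in replicates 1, 2 and 3 for 2, 6 and 6 of them. Replicate 1 also had the lowest hemocyte and salivary gland marker sums given above, and their part in these differences was not tested.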

How the data were processed

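RNA sequencing of wing discs with the notum removed was analysed for the 3 OreR libraries. The authors deposited RPKM values for 15682 genes in 9 libraries. Stranded poly(A) libraries were made, per the labels' protocols. CASAVA 1.8.2, TopHat2 and the dm3 build are named in the submitters' processing notes; no counter, strand setting, gene model set or handling of reads with several matches is given in the sources used here. Sense and antisense genes that overlap therefore cannot be told apart with certainty.

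Whole reads were recovered from the deposited RPKM values by finding the depth and gene length that make each value a whole number within 0.01 read. This worked for all 12436 genes above 0, with all 9 libraries used for the length alone. The annotated span was taken where it gave whole reads and otherwise the smallest length that did, so a count can be a minimum. Recovered reads of all genes summed to 25434976, 27333669 and 34333165, just under the depths. On simulated data 100% of 1500 genes were recovered. Genes with few reads over the 9 simulated libraries were left out of that trial. It therefore does not cover the counts of a few reads given above, for which a fitting length is easily found. For 78.7% of 6403 genes with introns the length lay within 2% of the BDGP6 span, and for 1.16% within 2% of the exon length. Symbols, biotypes and exon lengths came from BDGP6 for 15002 genes, and TPM was computed for those; the other 680 had none, among them FBgn0000556 at 2675 RPKM. Reads carry no molecular identifiers, so limits cover counting error only.

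Groups came from the labels. No group was compared and no p-value was computed. The members and the 78 gene lists were chosen with earlier results of these data known. Genes named were the 20 most abundant on either scale, up to 6 highest members of a list and those used to call it low, the 12 most and 12 least variable genes, the 8 highest noncoding RNAs, the 2 highest of a family, and transcription factor, ligand and receptor genes of the patterning lists; many are summarised without a name. CR32027 and the low ribosomal protein paralogues were chosen outside this rule after their values were seen. Alternatives covered detection limits, exon length, pseudocounts, gene classes, scaling and leaving out each library. Computation was in Python 3.11.15 with pandas 2.3.3 and numpy 2.4.6; intervals used scipy 1.17.1 and figures matplotlib 3.10.9.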

Additional observations from a re-analysis of the deposited data

How the results depend on the processing

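The number of detected genes (7290), the share of the 100 highest genes and the number of genes at 0 kept within 1.5 times or 1 SD of their values under all settings tried except one: any value above 0 gave 11493 genes. The median CV of a detected gene (5.56%) was 4.27 to 4.93% when 1 replicate was left out, 6.09% per exon length, 5.15% for means of at least 5 RPKM and 5.21% from the SD of log2(RPKM + 1). The ratio of X to autosome medians (0.923 from means) was 0.888 per exon length, 0.900 for protein-coding genes and 1.15 for all genes above 0; leaving out a library moved it to between 0.920 and 0.928. Exon length in place of span moved the percentile of 100 of 1385 listed genes up by over 10 points and of 4 down, and by more than the SD it moved 659 of 1385 gene percentiles and 61 of 78 list medians. Leaving out a library moved 1356 gene percentiles against 2799 that stayed, and 51 list medians against 183. The causes were not tested beyond the construction of each setting. Depth limits genes with long spans least and short genes most. No paired analysis was possible because the results describe 1 group and come from no test between groups.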

Other observations

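Gene groups not described above were detected as well. The tubulin, actin and related cytoskeleton list had all 8 members detected at a median of 258 RPKM, and the glycolysis list all 11 at 46.8 RPKM. The chitin and apical matrix list had 10 of 11 members detected at a median of 24.0 RPKM. In the sex determination list tra2 averaged 29.3 ± 1.03 RPKM and Sxl 13.4 ± 0.142, while dsx averaged 1.12 ± 0.152 and fru 0.988 ± 0.280 RPKM. Per exon length dsx stood at 10.6 TPM and fru at 14.1.

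Reads and RPKM rank part of the transcriptome differently. With a mean under 1 RPKM, 177 genes still had at least 500 reads over the 3 libraries, and 52 genes had a mean of at least 10 TPM. The immunoglobulin-domain gene kirre averaged 0.161 ± 0.00351 RPKM from 5532 reads, or 16.2 TPM. In all, 593 genes lay under 1 RPKM but at 1 TPM or more in every library. Groups of genes with the same 3 values, 184 genes in all, cannot be separated: the small open reading frame genes tal-1A, tal-2A, tal-3A and tal-AA, which share 1 transcript, are an example.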
